A study of Mus musculus with 22 samples.

Results

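Genes of NF-κB signalling, 10 in number, were followed through serial passage and S6 kinase deletion in mouse embryonic fibroblasts (MEFs). The list was chosen by name and holds the 5 NF-κB subunits (*Nfkb1*, *Nfkb2*, *Rel*, *Rela* and *Relb*), 3 inhibitors of the IκB family (*Nfkbia*, *Nfkbib* and *Nfkbie*), the feedback inhibitor *Tnfaip3* and the coregulator *Bcl3*, together 10 of the 55401 gene identifiers in the count table. RNA-seq was done on MEFs of C57BL/6 mice, grown from day-13.5 embryos, that belonged to 2 sets. For *S6K1* there were 4 early WT libraries at passage 3, and at passage 8 there were 4 late WT and 3 late *S6K1* KO libraries. For *S6K1/S6K2* there were likewise 4 early WT libraries at passage 3, and at passage 8 there were 4 late WT and 3 late DKO libraries, the last from MEFs that lacked both kinases. *S6K1* KO embryos and their WT controls were littermates, whereas DKO embryos came from *S6K1* heterozygous, *S6K2*-null parents and their WT controls from other mothers at an earlier stage of breeding, so genotype and litter cannot be told apart in the DKO comparison. No early KO or DKO library was analysed here.

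NF-κB is a family of dimeric transcription factors that drives inflammatory genes, among them many cytokines secreted by senescent cells. In resting cells IκB proteins hold the dimers in the cytoplasm. The IκB kinase (IKK) complex marks IκB for degradation, the dimers enter the nucleus, and among the genes they switch on are *Nfkbia* and *Tnfaip3*, whose products shut the response off again. Transcript levels of these genes do not measure the nuclear amount or the activity of NF-κB, and neither was measured here.

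Upstream sequences are shown for *Tnfaip3*, *Nfkbia* and *Nfkbie*, which passed a test below and carry motifs of the factor that these genes restrain. *Bcl3* passed a test as well, but its window held no match and is not shown. Each line gives the 250 bases before the RefSeq start in GRCm38.p6, read 5′ to 3′ on the strand of the gene, and capitals mark matches to the NF-κB consensus, searched on both strands.
*Tnfaip3*, chr10:19015411-19015660, minus strand: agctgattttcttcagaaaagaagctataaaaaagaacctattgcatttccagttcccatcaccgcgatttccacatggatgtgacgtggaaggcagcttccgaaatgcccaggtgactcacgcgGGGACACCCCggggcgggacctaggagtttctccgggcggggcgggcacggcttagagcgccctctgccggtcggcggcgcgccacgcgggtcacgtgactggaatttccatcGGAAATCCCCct
*Nfkbia*, chr12:55492648-55492897, minus strand: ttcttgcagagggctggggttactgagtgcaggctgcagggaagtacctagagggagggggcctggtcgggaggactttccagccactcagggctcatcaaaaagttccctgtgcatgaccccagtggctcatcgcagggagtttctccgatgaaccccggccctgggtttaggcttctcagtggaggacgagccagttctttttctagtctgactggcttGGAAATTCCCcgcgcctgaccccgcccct
*Nfkbie*, chr17:45555450-45555699, plus strand: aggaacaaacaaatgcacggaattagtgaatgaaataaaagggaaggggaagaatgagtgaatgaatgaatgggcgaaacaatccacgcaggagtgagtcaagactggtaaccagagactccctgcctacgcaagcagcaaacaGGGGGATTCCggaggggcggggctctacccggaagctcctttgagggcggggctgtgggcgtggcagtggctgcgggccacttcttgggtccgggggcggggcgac

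*Tnfaip3* held matches at 2 positions, −125 to −116 and −12 to −3 from the start, and a second RefSeq start of the gene (upstream window chr10:19011964-19012213) held 0. The match of *Nfkbia* lay at −29 to −20 and that of *Nfkbie* at −106 to −97. RefSeq windows were matched for 8 of the 10 genes, and 5 of these 8 held a match (*Nfkb2*, *Rel*, *Nfkbia*, *Nfkbie* and *Tnfaip3*), against 8.23% of the 27025 genes searched in the same way. The windows of *Rela*, *Nfkbib* and *Bcl3* held no match to the consensus. A match describes the sequence and is not evidence of binding.

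All 10 genes passed the filter on low counts in every comparison. Total counts were 10742454 to 17314832 per library, so that 3 counts corresponded to 0.173 to 0.279 CPM (counts relative to library size, here scaled by TMM over the 22 libraries). *Rps6kb1*, which encodes S6K1, was at 56.5 to 94.3 CPM in WT libraries, at 14.1 to 23.2 CPM in *S6K1* KO and at 19.9 to 28.3 CPM in DKO libraries, and *Rps6kb2*, which encodes S6K2, was at 0.471 to 1.36 CPM in DKO and at 11.1 to 16.5 CPM in late WT libraries of that set. The summed level of 12 fibroblast markers was 20255 to 41815 CPM. That of 20 macrophage markers, none of which was at 0 counts in any library, was 535 to 1203 CPM in early WT, 5727 to 11841 CPM in late WT and 3882 to 5198 CPM in late KO libraries of the *S6K1* set. The corresponding sums of the *S6K1/S6K2* set were 645 to 2163 CPM in early WT, 7895 to 13561 CPM in late WT and 999 to 3619 CPM in late DKO libraries. The 7 lymphoid markers summed to 0.399 CPM or less. Fewer cells of a type and less RNA per cell cannot be told apart in these bulk samples.

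The steady-state levels were first ordered per exon length (RPKM, with the union of all exons of a gene in GENCODE vM1). The annotation used for counting is not given, so these lengths may differ from those of the counted exons. In late WT MEFs of the *S6K1* set the IκBα gene *Nfkbia* was highest at 44.8 ± 11.8 RPKM (SD, n = 4), followed by *Rela*, encoding the transactivating subunit p65, at 22.1 ± 5.18 RPKM and by *Nfkb2*, encoding p100/p52, at 16.6 ± 2.30 RPKM. *Nfkbib* (IκBβ) was at 13.4 ± 1.45 RPKM, *Nfkb1* (p105/p50) at 8.85 ± 2.20 RPKM and *Relb* at 6.28 ± 1.24 RPKM. *Nfkbie* (IκBε) was at 4.57 ± 1.36 RPKM, *Bcl3* at 2.59 ± 1.14 RPKM, *Rel* (c-Rel) at 2.19 ± 0.511 RPKM and *Tnfaip3*, encoding the ubiquitin-editing enzyme A20, was lowest at 0.768 ± 0.334 RPKM. Neighbours in this order had overlapping mean ± SD ranges except for *Nfkbia* and *Rela*, *Nfkbib* and *Nfkb1*, and *Rel* and *Tnfaip3*. In early WT MEFs of the *S6K1/S6K2* set the order differed at the top, with *Rela* at 22.5 ± 0.622 RPKM above *Nfkbia* at 17.6 ± 1.21 RPKM. It also differed lower down. *Bcl3* at 5.75 ± 1.64 RPKM stood above *Relb* at 4.23 ± 0.171 RPKM, with overlapping ranges, and above *Nfkbie* at 2.07 ± 0.792 RPKM.

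**Figure D1:**
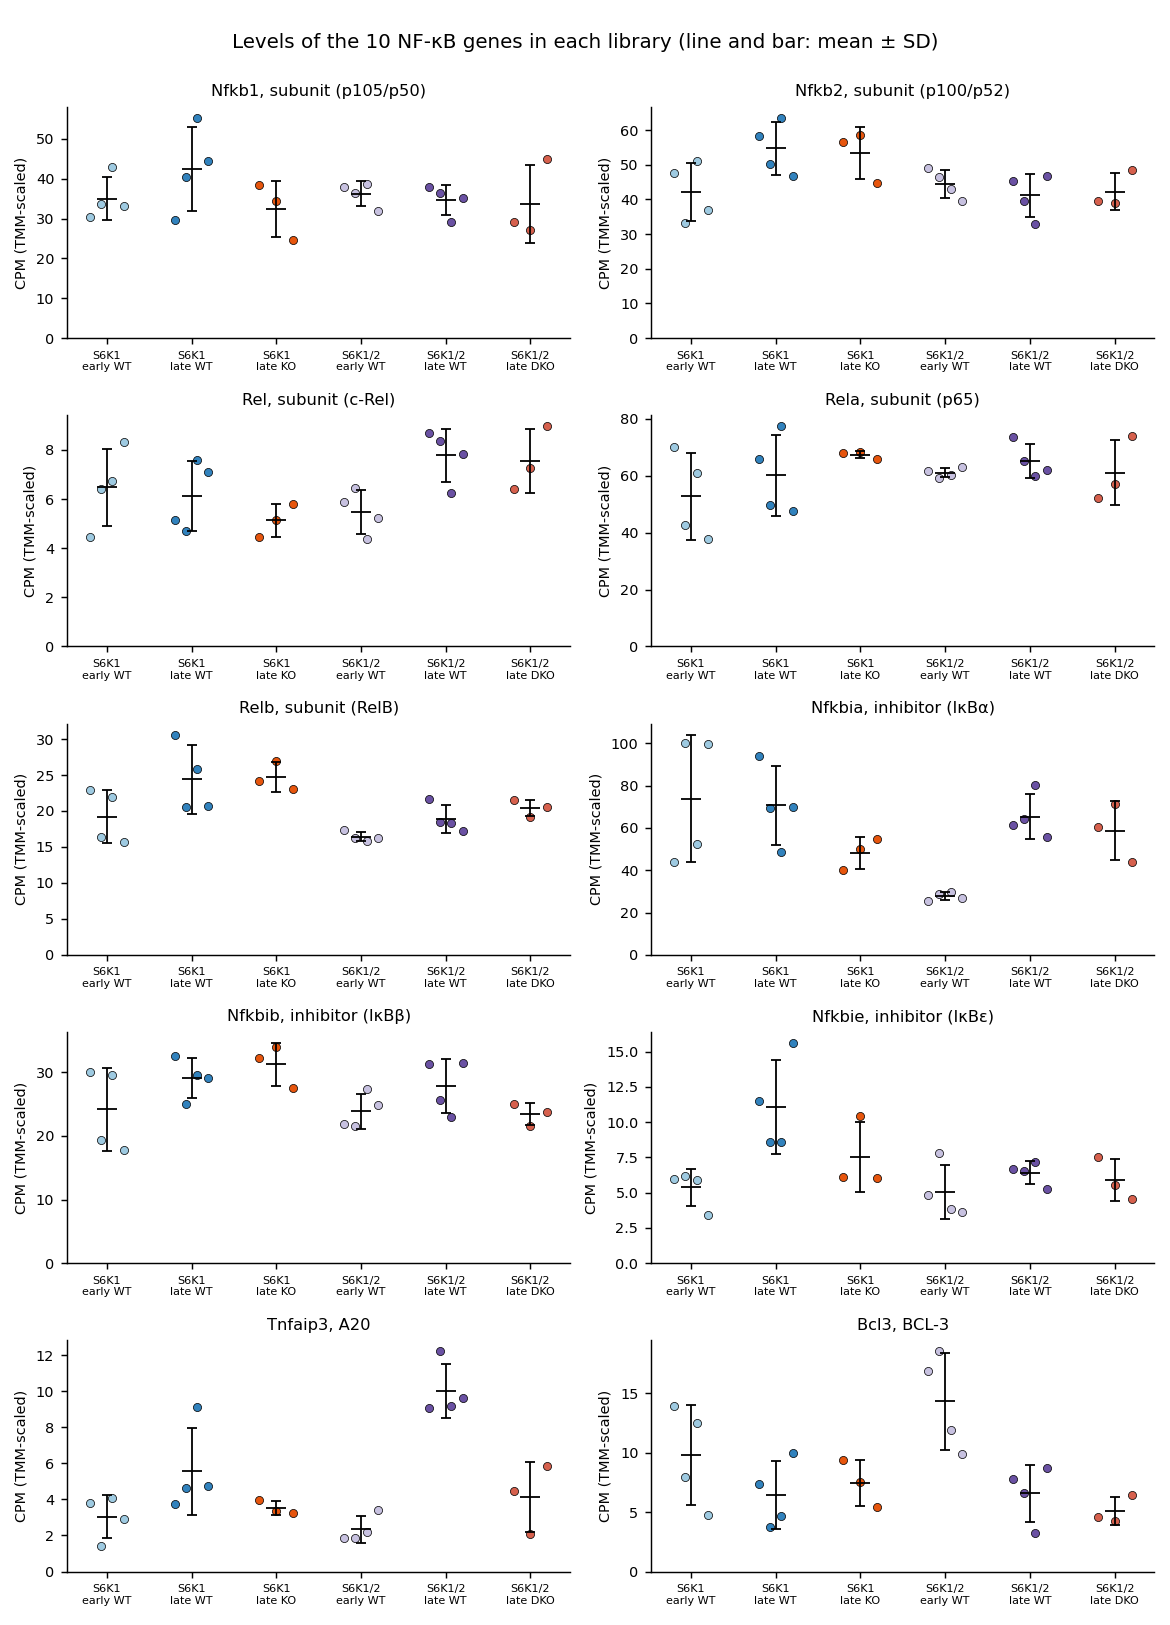
TMM-scaled CPM of the 10 genes (vertical axes, each from 0) in the 6 groups (horizontal axis). Points are libraries and bars are means ± SD (n = 4 for WT and n = 3 for KO and DKO groups). *Nfkbia* was 25.6 to 29.9 CPM in the early WT libraries of the *S6K1/S6K2* set and at least 40.0 CPM in every other library, and *Tnfaip3* was 9.04 to 12.2 CPM in the late WT libraries of that set and 5.87 CPM or less in all other libraries but late WT replicate 3 of the *S6K1* set (9.11 CPM).

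The first comparison asked how transcripts of the subunits changed with passage in WT MEFs. Not one of the 5 subunit genes passed the test in either MEF set, beside 12.9% and 13.2% of all genes tested. Nothing was read from this count. The unadjusted edgeR p was under 0.05 for *Nfkb2* in the *S6K1* set and for *Rel* and *Relb* in the *S6K1/S6K2* set. *Rela* was at 69.9, 42.5, 61.0 and 37.7 CPM in the early and at 65.8, 49.7, 77.3 and 47.5 CPM in the late WT libraries of the *S6K1* set. The groups overlapped over most of their range, and the log2 fold change was 0.18 (95% interval −0.26 to 0.62). *Rela* in the *S6K1/S6K2* set was at 59.1 to 62.9 CPM in early and 60.0 to 73.7 CPM in late WT libraries, with a log2 fold change of 0.14 (95% interval −0.11 to 0.39). *Nfkb1* had log2 fold changes of 0.27 (95% interval −0.17 to 0.70) and −0.02 (95% interval −0.35 to 0.31) in the 2 sets. Thus, a change of *Rela* or *Nfkb1* by 1 log2 unit or more lay outside all 4 intervals.

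*Rel* was scarce, with 59 to 145 counts per library. It was at 5.89, 6.44, 4.36 and 5.22 CPM in the early WT and at 8.68, 8.37, 6.23 and 7.83 CPM in the late WT libraries of the *S6K1/S6K2* set, where only late replicate 3 fell within the early range. The log2 fold change of 0.55 ± 0.19 (SE) did not pass the test (edgeR quasi-likelihood test, Benjamini-Hochberg adjusted p = 0.0764), and in the *S6K1* set it was −0.09 ± 0.25 (adjusted p = 0.858). *Nfkb2* and *Relb*, the genes of the non-canonical dimer, had log2 fold changes of 0.37 (adjusted p = 0.164) and 0.34 (adjusted p = 0.223) in the *S6K1* set and of −0.07 (adjusted p = 0.756) and 0.24 (adjusted p = 0.161) in the *S6K1/S6K2* set. *Relb* was at 15.7 to 22.9 CPM in early and 20.6 to 30.6 CPM in late WT libraries of the *S6K1* set, and these ranges overlapped.

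The genes of the list that passed the test with passage were *Nfkbie*, *Nfkbia*, *Tnfaip3* and *Bcl3*. In the *S6K1* set 1 of the 10 genes passed, *Nfkbie*, against 12.9% of the 14132 genes tested. In the *S6K1/S6K2* set 3 of the 10 passed, *Nfkbia* and *Tnfaip3* with a rise and *Bcl3* with a fall, against 13.2% of the 14365 genes tested (8.28% higher and 4.89% lower). Nothing was read from counts of 1 and 3 out of 10 beside these shares, and each gene is described by its own values.

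*Nfkbia* (ENSMUSG00000021025.8, chr12:55489409-55492647 in GRCm38.p6) was at 25.6, 28.7, 29.9 and 26.9 CPM in the early WT libraries of the *S6K1/S6K2* set and at 61.2, 64.3, 80.1 and 55.9 CPM in the late WT libraries. Every late library was above every early one, which was the case for 10% of all genes tested in that direction. The rise was 2.43-fold (log2 fold change 1.28 ± 0.16 SE, adjusted p = 0.000816), and it passed the test in all 18 alternative fits. In the *S6K1* set *Nfkbia* was at 43.7, 99.9, 52.2 and 99.7 CPM in early and at 94.2, 69.6, 48.8 and 69.8 CPM in late WT libraries. The early libraries of that set fell into a low and a high pair, the late values lay within the early range, and the log2 fold change was −0.08 (95% interval −0.71 to 0.55, adjusted p = 0.892).

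The difference of the passage effect between the MEF sets was 1.33 ± 0.36 log2 units for *Nfkbia* and did not pass the test over all genes (edgeR, adjusted p = 0.113). Of the 10 genes 0 passed this test of the difference, against 0.712% of 14886 genes, and 3 had an unadjusted p under 0.05 (*Nfkbia*, *Tnfaip3* and *Nfkb2*). DESeq2 called 1, *Nfkbia* (log2 difference 1.34, adjusted p = 0.035), and so did the edgeR test without early WT replicate 1 of the *S6K1* set (log2 difference 1.52, adjusted p = 0.0264). Over all 27 alternatives the adjusted p for *Nfkbia* was 0.0264 to 0.273. At passage 3 *Nfkbia* was at 43.7 CPM or more in all 4 libraries of the *S6K1* set and at 29.9 CPM or less in all 4 of the *S6K1/S6K2* set, a difference that was not tested. A MEF set and whatever was prepared with it cannot be told apart.

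Values of other genes are given beside those of *Nfkbia*. The summed level of 18 immediate-early genes, which respond within minutes to stimulation of the cells, was 2139 to 2273 CPM in early, 813 to 953 CPM in late WT and 784 to 988 CPM in KO libraries of the *S6K1* set. Their sum ran the other way in the *S6K1/S6K2* set, from 770 to 937 CPM in early to 1830 to 2178 CPM in late WT and 2061 to 2426 CPM in DKO libraries. With passage 11 of these 18 genes fell and 0 rose in the *S6K1* set, 14 rose and 0 fell in the *S6K1/S6K2* set, and the difference between the sets passed the test for 15, all in the direction of the *S6K1/S6K2* set. Over all genes tested 5.97% were called lower in the *S6K1* set and 8.28% higher in the *S6K1/S6K2* set. The difference between the sets passed in that direction for 0.457%. *Nfkbia* thus rose together with the immediate-early sum in the *S6K1/S6K2* set. In the *S6K1* set that sum was lower in late libraries and *Nfkbia* did not pass the test. The part of these genes in the *Nfkbia* result was not tested. Libraries also differed in Y-linked counts, which were present in 2 of 4 early WT, 1 of 4 late WT and 3 of 3 KO libraries of the *S6K1* set and in 2 of 4, 3 of 4 and 1 of 3 libraries of the corresponding groups of the *S6K1/S6K2* set. In the *S6K1* set *Nfkbia* was at 40.0 to 54.8 CPM in the 6 libraries with and at 69.6 to 99.9 CPM in the 5 libraries without Y-linked counts. The 2 ranges did not overlap, as was the case for 5.67% of all genes tested and for no other of the 10 genes. The ranges of the *S6K1/S6K2* set were 28.7 to 80.1 CPM with and 25.6 to 60.6 CPM without Y-linked counts, and they overlapped, unlike those of 0.251% of the genes tested.

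**Figure D2:**
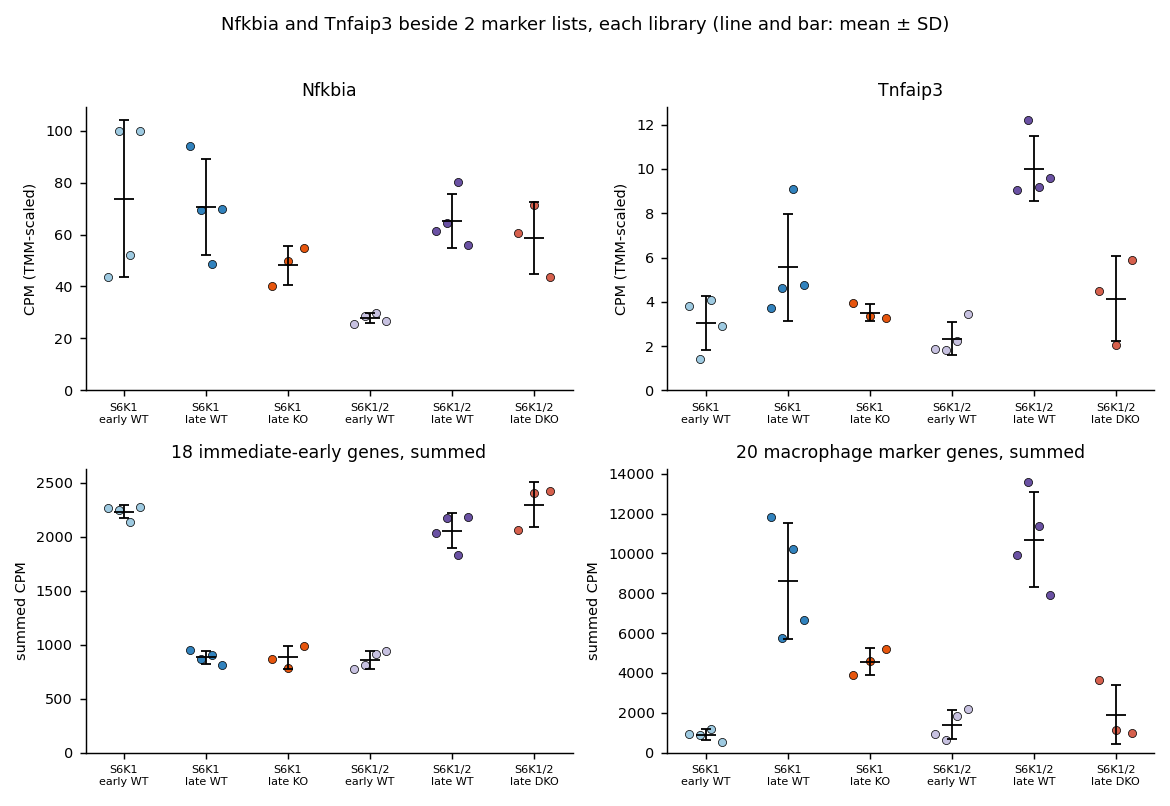
Library values of *Nfkbia* and *Tnfaip3* (upper panels, TMM-scaled CPM) above the summed CPM of 18 immediate-early genes and of 20 macrophage markers (lower panels) in the 6 groups, with means ± SD. Immediate-early genes summed to 2139 to 2273 CPM in early and 813 to 953 CPM in late WT libraries of the *S6K1* set and to 770 to 937 CPM and 1830 to 2178 CPM in the *S6K1/S6K2* set, whereas macrophage markers were higher in late than in early WT libraries of both sets.

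*Tnfaip3* had the largest called change of the 10 genes. The gene (ENSMUSG00000019850.11, chr10:19000910-19015410) was at 1.87, 1.84, 2.21 and 3.43 CPM in the early and at 9.04, 12.2, 9.20 and 9.61 CPM in the late WT libraries of the *S6K1/S6K2* set. These ranges did not overlap, and the rise was 4.41-fold (log2 fold change 2.14 ± 0.31 SE, adjusted p = 0.00141) and passed in all 18 alternatives. In the *S6K1* set the gene was at 3.81, 1.40, 4.06 and 2.92 CPM in early and at 3.73, 4.63, 9.11 and 4.74 CPM in late WT libraries. These ranges overlapped through 2 early libraries and late replicate 1, and the log2 fold change of 0.86 ± 0.35 did not pass (adjusted p = 0.135). With the Y-linked level as a covariate it was 1.12 (adjusted p = 0.00895), and *Nfkb2* passed as well (log2 fold change 0.49, adjusted p = 0.0184), so that 3 of the 10 genes passed in place of 1, while the share of all genes that passed was 23.3% in place of 12.9%. The difference between the sets was 1.25 ± 0.47 log2 units (adjusted p = 0.358).

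*Nfkbie* was the gene that passed in the *S6K1* set. The gene (ENSMUSG00000023947.8, chr17:45555700-45563169) was at 5.96, 6.19, 5.89 and 3.43 CPM in early and at 11.5, 8.61, 8.58 and 15.6 CPM in late WT libraries, and all late libraries lay above the early ones, as did 9.07% of all genes tested. The rise was 2.05-fold (log2 fold change 1.03 ± 0.28 SE, adjusted p = 0.0293), and 6.96% of all genes tested were called higher. It did not pass without early WT replicate 4 (0.88, adjusted p = 0.0704), late WT replicate 1 (1.01, adjusted p = 0.0612) or late WT replicate 4 (0.82, adjusted p = 0.0776). In the *S6K1/S6K2* set *Nfkbie* was at 3.63 to 7.79 CPM in early and 5.28 to 7.17 CPM in late WT libraries, with a log2 fold change of 0.39 ± 0.27 (adjusted p = 0.34). *Nfkbib* had log2 fold changes of 0.26 (adjusted p = 0.375) and 0.27 (adjusted p = 0.197) in the 2 sets.

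*Bcl3* encodes an atypical IκB protein that acts in the nucleus with p50 and p52 dimers. The gene (ENSMUSG00000053175.17, chr7:19808462-19822824) was at 16.9, 18.5, 11.9 and 9.90 CPM in early and at 7.77, 6.57, 3.26 and 8.72 CPM in late WT libraries of the *S6K1/S6K2* set. All late libraries lay below the early ones, as did 10.5% of all genes tested, and the fall was 2.10-fold (log2 fold change −1.07 ± 0.29 SE, adjusted p = 0.0329). Without early WT replicate 1 the adjusted p was 0.0922, without early WT replicate 2 it was 0.101, without late WT replicate 2 it was 0.0714 and without late WT replicate 3 it was 0.0559. In the *S6K1* set *Bcl3* was at 4.72 to 13.9 CPM in early and 3.75 to 9.99 CPM in late WT libraries, with a log2 fold change of −0.61 ± 0.37 (adjusted p = 0.309). The difference between the sets was −0.50 ± 0.49 log2 units (adjusted p = 0.779).

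**Figure D3:**
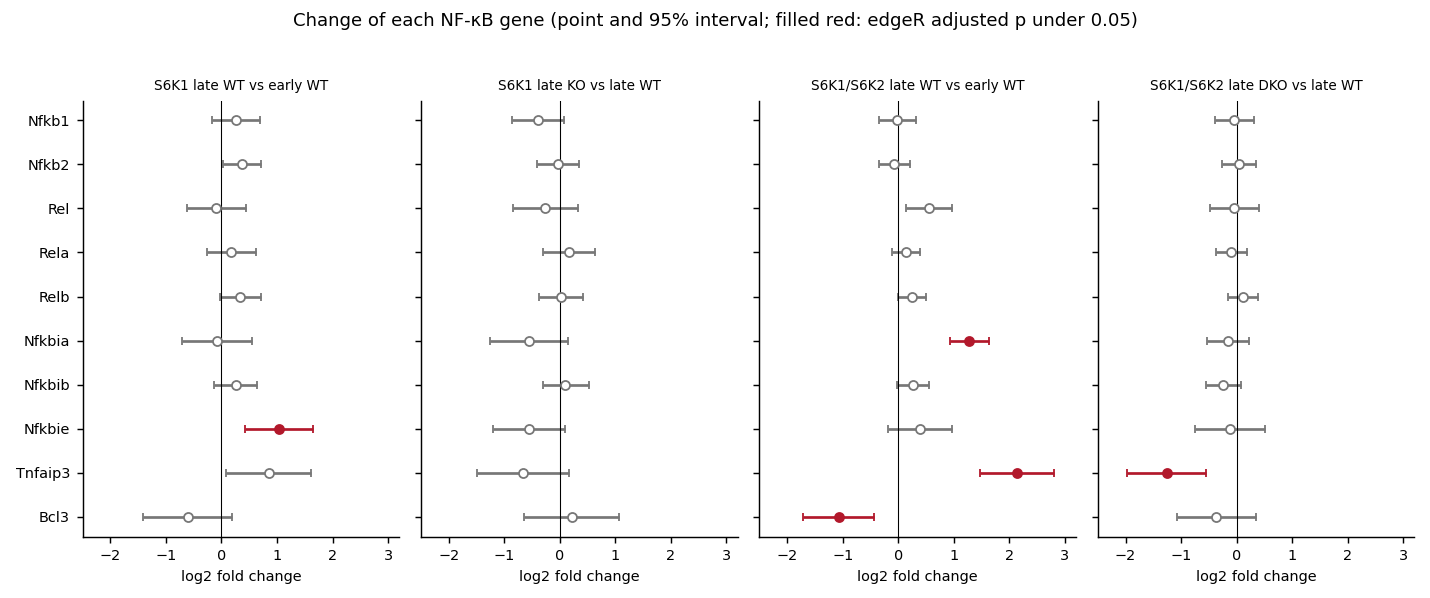
Log2 fold changes (horizontal axes) of the 10 genes (vertical axis) in the 4 comparisons, with 95% intervals, filled red where the edgeR adjusted p was under 0.05. The filled points are *Nfkbie* (1.03) in the first panel, *Nfkbia* (1.28), *Tnfaip3* (2.14) and *Bcl3* (−1.07) in the third and *Tnfaip3* (−1.26) in the fourth, and the second panel, *S6K1* KO against WT, has none.

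The next comparison asked whether loss of S6K1 altered these transcripts in late MEFs. Of the 10 genes 0 passed in late *S6K1* KO against late WT MEFs, against 0.0425% of the 14132 genes tested. No member had an unadjusted p under 0.05 with edgeR, and DESeq2 called 0 of them. The widest differences were those of *Tnfaip3*, *Nfkbie* and *Nfkbia*. *Tnfaip3* was at 3.95, 3.34 and 3.25 CPM in KO libraries, with a log2 fold change of −0.66 (95% interval −1.49 to 0.16, adjusted p = 0.584), which became −1.29 (adjusted p = 0.119) with the Y-linked level as a covariate. *Nfkbie* was at 6.13, 10.4 and 6.04 CPM, with a log2 fold change of −0.56 (95% interval −1.20 to 0.09, adjusted p = 0.551). *Nfkbia* was at 40.0, 49.8 and 54.8 CPM, with a log2 fold change of −0.55 (95% interval −1.25 to 0.14, adjusted p = 0.585), which became 0.16 (adjusted p = 0.762) with that covariate. The intervals of these 3 genes reached below −1 log2 unit, so that a difference of that size was not excluded. *Rela* was at 67.9, 68.2 and 66.0 CPM in KO libraries. Its log2 fold change was 0.17 (95% interval −0.31 to 0.64), and it became −0.25 (adjusted p = 0.509) with the covariate. Y-linked counts were present in 3 of 3 KO but in 1 of 4 late WT libraries. The covariate and the genotype thus largely coincide, and the values with the covariate cannot separate them well. *Nfkb1* had a log2 fold change of −0.39 (95% interval −0.87 to 0.08), *Nfkb2* of −0.04 (95% interval −0.42 to 0.34), *Rel* of −0.26 (95% interval −0.85 to 0.33) and *Relb* of 0.02 (95% interval −0.38 to 0.42). Those of *Nfkbib* and *Bcl3* were 0.10 (95% interval −0.31 to 0.52) and 0.21 (95% interval −0.65 to 1.07). Macrophage markers were lower in KO in sign for all 20 (median log2 fold change −0.86), and 0 of them passed.

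In late DKO against late WT MEFs 1 of the 10 genes passed, *Tnfaip3*, against 4.78% of the 14365 genes tested (3.95% lower). It was at 4.49, 2.07 and 5.87 CPM in DKO libraries and at 9.04 to 12.2 CPM in late WT libraries. All DKO libraries lay below all WT libraries, as for 10.5% of all genes tested, and the fall was 2.40-fold (log2 fold change −1.26 ± 0.33 SE, adjusted p = 0.0491). The call was at the threshold: it was lost in 14 of 18 alternatives, whose log2 fold changes were −1.59 to −0.94 and adjusted p values 0.00459 to 0.167. Leaving out DKO replicate 2 gave the smallest fall (−0.94, adjusted p = 0.167). Of the DKO values of *Tnfaip3*, 4.49 and 5.87 CPM lay between the ranges of early and late WT libraries. The lowest, 2.07 CPM, fell within the early range.

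The other 9 genes did not pass in DKO MEFs. *Nfkbia* was at 60.6, 71.4 and 43.8 CPM, with a log2 fold change of −0.16 (95% interval −0.53 to 0.22), so that it was at 43.8 CPM or more in every late library of the set and at 29.9 CPM or less in every early one. *Bcl3* was at 4.57, 4.24 and 6.43 CPM, below the early WT range (log2 fold change against late WT −0.37, 95% interval −1.08 to 0.34). *Rela*, which lies 1.47 Mb from *Rps6kb2* on chromosome 19, was at 52.1, 57.0 and 74.0 CPM, with a log2 fold change of −0.10 (95% interval −0.37 to 0.18). *Nfkbie* was at 7.56, 5.56 and 4.57 CPM, with a log2 fold change of −0.12 (95% interval −0.75 to 0.51). The log2 fold changes were −0.04 for *Nfkb1* and for *Rel*, 0.04 for *Nfkb2*, 0.11 for *Relb* and −0.25 for *Nfkbib*. The intervals of *Nfkb1*, *Nfkb2*, *Rela*, *Rel*, *Relb*, *Nfkbia* and *Nfkbib* all lay within −0.56 to 0.41, so that a fall of these 7 transcripts by 1 log2 unit lay outside them. The difference between the KO and DKO effects passed the edgeR test for 0 of the 10 genes (0 adjusted and 0 unadjusted p under 0.05, against 0.00672% of 14886 genes called). For *Tnfaip3* the DKO minus KO difference was −0.59 ± 0.51 log2 units (adjusted p = 0.718).

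Macrophage markers are given beside *Tnfaip3*. With passage 20 of 20 rose in the *S6K1* set, where *Tnfaip3* did not pass, and 19 of 20 rose in the *S6K1/S6K2* set. In DKO MEFs 18 of 20 fell. Over all genes 6.96% and 8.28% were called higher with passage, and 3.95% lower in DKO MEFs. The library with the highest marker sum of its group had the lowest *Tnfaip3* in *S6K1* late WT (11841 and 3.73 CPM). The same held in *S6K1* late KO (5198 and 3.25 CPM). That library had the highest *Tnfaip3* in *S6K1* early WT (1203 and 4.06 CPM). So it did in *S6K1/S6K2* early WT (2163 and 3.43 CPM) and late WT (13561 and 12.2 CPM). In DKO MEFs the highest sum (3619 CPM) went with the middle *Tnfaip3* value (4.49 CPM). The highest *Tnfaip3* there (5.87 CPM) went with the lowest sum (999 CPM). The part of the markers in the *Tnfaip3* result was not tested. The median log2 fold change of the 10 genes was 0.26 with passage in both sets, −0.15 in KO and −0.11 in DKO, beside medians over all genes tested of −0.04, 0.01, −0.01 and −0.01, and beside marker medians of 2.94, 2.47, −0.86 and −2.38.

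Upstream of IκB, 27 genes of IKK and its adaptors and receptors were listed, of which 26 passed the filter in each MEF set. The counts of this and the next lists stand beside 12.9% and 13.2% of all genes that passed with passage in the 2 sets and 4.78% in DKO MEFs. With passage 3 rose and 0 fell in the *S6K1* set, and 2 rose and 1 fell in the *S6K1/S6K2* set. *Tlr2*, a receptor for bacterial lipopeptides, had log2 fold changes of 1.95 (adjusted p = 0.000475) and 1.20 (adjusted p = 0.00518), and *Cd14*, a lipopolysaccharide coreceptor that is also one of the 20 macrophage markers, had 1.69 (adjusted p = 0.00121) and 1.91 (adjusted p = 0.0045). The third rise in the *S6K1* set was *Traf3*, an adaptor that restrains the non-canonical pathway (0.52, adjusted p = 0.0174), and the fall in the *S6K1/S6K2* set was *Traf2*, an adaptor of TNF receptors (−0.57, adjusted p = 0.0229). In DKO MEFs *Tlr2* (−1.35, adjusted p = 0.0122) and *Cd14* (−2.04, adjusted p = 0.0136) fell and 0 rose. No gene of this list passed in *S6K1* KO MEFs. The IKK subunit genes *Chuk*, *Ikbkb* and *Ikbkg* were not among those that passed in any of these 4 comparisons.

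Of 26 further IκB proteins and regulators, all of which passed the filter, 3 rose and 1 fell with passage in the *S6K1* set, and 4 rose and 1 fell in the *S6K1/S6K2* set. The fall in the *S6K1* set was *Nfkbiz*, an atypical nuclear IκB (−1.15, adjusted p = 0.00504), whereas *Cyld*, a deubiquitinase that limits NF-κB signalling (0.58, adjusted p = 0.0142), and the kinase gene *Tbk1* (0.45, adjusted p = 0.039) rose. In the *S6K1/S6K2* set *Nfkbid*, another atypical nuclear IκB (2.03, adjusted p = 0.00106), *Skp1*, a subunit of the ubiquitin ligase that marks IκB (0.47, adjusted p = 0.0154), and *Tank*, a TRAF-binding adaptor (0.59, adjusted p = 0.0344), were the rises with the smallest p. *Nfkbid* was also the only gene of this list that passed in DKO MEFs, where it fell (−1.63, adjusted p = 0.0129). Again 0 passed in *S6K1* KO MEFs.

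NF-κB target genes formed a list of 45, of which 43 were matched in the count table. With passage 5 rose and 3 fell among 34 tested in the *S6K1* set, and 10 rose and 1 fell among 35 tested in the *S6K1/S6K2* set. In the *S6K1* set *Cd83* (3.77, adjusted p = 0.000171) and *Bcl2a1b* (2.92, adjusted p = 0.00057), which also occur in myeloid cells, rose, and *Ier3*, a stress-response gene, fell (−1.59, adjusted p = 0.00136). *Bcl2a1b* has close paralogs, so the assignment of its reads is uncertain. The chemokine gene *Cxcl2* fell in the *S6K1* set (−2.78, adjusted p = 0.00154), from 6.06 ± 0.595 to 0.876 ± 0.633 CPM. In the *S6K1/S6K2* set it rose from 2 to 4 counts in early to 40 to 107 counts in late WT libraries (adjusted p = 0.000312), and the cytokine gene *Il15* rose as well (2.12, adjusted p = 0.00105). *Il1b*, another cytokine gene, had 0 to 1 counts in early and 16 to 30 counts in late WT libraries of that set (adjusted p = 0.00131). It passed the filter there through the late libraries and did not pass it in the *S6K1* set, and no fold change is given for it or for the rise of *Cxcl2*, whose early counts were near 0. In DKO MEFs 2 of 35 fell, *Tnf* (−2.20, adjusted p = 0.031) and *Cxcl2* (−1.86, adjusted p = 0.0456), and 0 rose. The difference between the sets passed for *Traf2* (−0.82, adjusted p = 0.0291), *Cxcl2* (adjusted p = 1.25e-06) and *Ier3* (1.75, adjusted p = 0.0037), which were named after their values were seen.

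**Figure D4:**
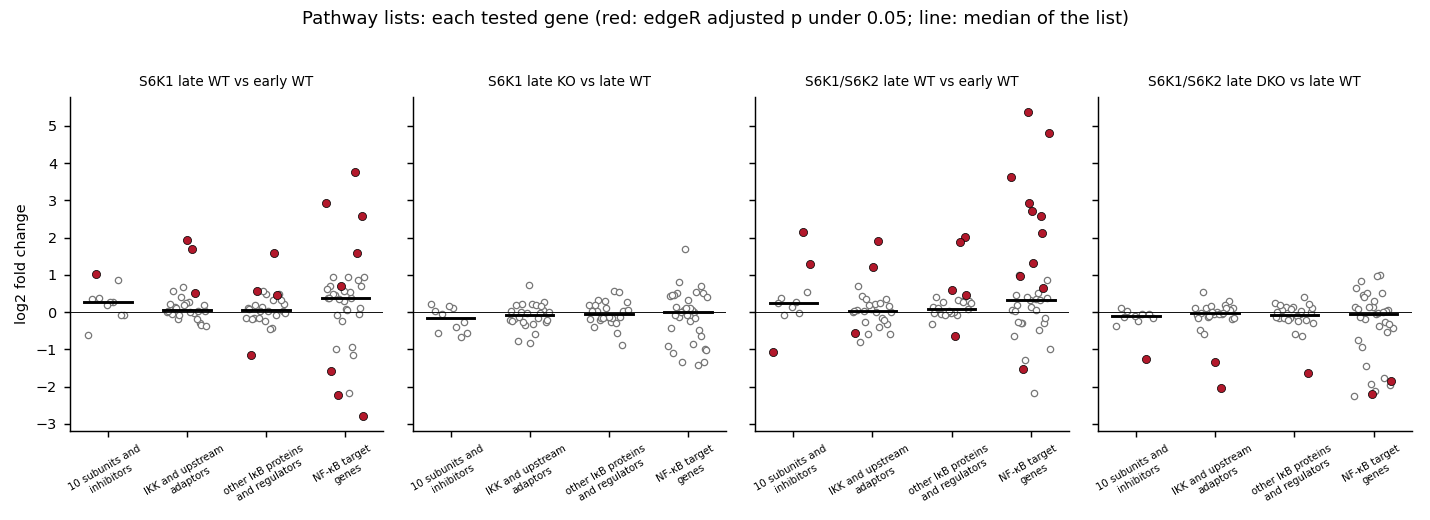
Log2 fold change (vertical axis) of each tested gene of the 10 members and of the 3 pathway lists (horizontal axis) in the 4 comparisons, red where the edgeR adjusted p was under 0.05, with a line at the median of each list. The 2 highest points of the third panel are *Il1b* and *Cxcl2*, whose fitted values rest on 4 early counts or fewer per library, and red points are absent from the *S6K1* KO panel.

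The genes with the most similar pattern to each member were found by Pearson correlation of log2 CPM over the 22 libraries, among 12476 genes with a mean of at least 1 CPM. These values describe libraries that share groups, MEF sets and depth. *Tnfaip3* was nearest to *Atf3* (r = 0.86), a stress-induced transcription factor gene, *Cerk* (0.85) and *Ccrl2* (0.85). *Nfkbia* was nearest to *Top1* (0.90), *Usf2* (0.89) and *Nkap* (0.88), *Bcl3* to *Carm1* (0.91) and *Dcbld1* (0.90), and *Nfkbie* to *H2-K1* (0.81), *Trmt112* (0.80) and *Ocel1* (0.78). Among the subunits *Rela* was nearest to *Actr1b* (0.91), *Nfs1* (0.90) and *Slc25a20* (0.90), and *Nfkb2* to *Ccdc117* (0.90), *Ube2z* (0.88) and *Tnip1* (0.87). *Tnip1*, whose product binds A20, also stood second for *Relb* (0.81), after *Rnf187* (0.84) and beside *8430406I07Rik* (0.81). *Rel* was nearest to *Ddx5* (0.77), *Map3k2* (0.76) and *Per1* (0.75), *Nfkb1* to *Naa40* (0.80), *Fnbp1* (0.79) and *Ephb3* (0.76), and *Nfkbib* to *Ahsa1* (0.88), *Rnpep* (0.87) and *Trappc3* (0.85). In no case was another of the 10 genes among the nearest 3.

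Within groups, where deviations from group means leave out the differences between groups, *Rela* and *Relb* varied together (r = 0.80 over 22 libraries), as did *Nfkb2* and *Rela* (0.75). *Nfkbia* varied against *Rela* (−0.74), *Nfkb2* (−0.73) and *Tnfaip3* (−0.73). *Nfkbia* and *Tnfaip3* thus varied in opposite directions when deviations of all 6 groups were pooled, although both rose with passage in the *S6K1/S6K2* set. In that set the lowest and highest *Nfkbia* of early WT libraries (25.6 and 29.9 CPM) went with *Tnfaip3* at 1.87 and 2.21 CPM. The corresponding late WT values were 55.9 and 80.1 CPM beside 9.61 and 9.20 CPM. No correlation was computed within a single group. The pooled correlations given above are the strongest of the member pairs, and pairs of other genes were not computed for comparison. In the *S6K1* set *Nfkbia* was also split by Y-linked counts (40.0 to 54.8 CPM with and 69.6 to 99.9 CPM without). The part of that split in these correlations was not tested.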

How the data were processed

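RNA-seq counts of 22 libraries of serially passaged MEFs in 6 groups were analysed. The paper's text states that the authors made stranded mRNA libraries, sequenced single-end reads, aligned these to mm9 (TopHat) and obtained counts per gene with HTSeq, whereas the submitters' processing notes name mm10, STAR 2.7.1a, CASAVA and DESeq2 1.28.1. The deposited values are raw counts per gene without normalization. Of the 55401 identifiers 22812 were not found in GENCODE vM1 (mm9). The annotation release and strand setting are not given in the sources used here, so reads of overlapping genes and close paralogs cannot be assigned with certainty.

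Symbols were taken from a table that named 32589 identifiers carrying 96.98% of the counts, and gene positions and upstream sequences from RefSeq GRCm38.p6. The NF-κB consensus was searched on both strands of the 250 bases before each RefSeq start in all 32851 windows, of which 7.25% held a match, and overlapping matches were counted at each position.

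Counts were tested in R 4.3.3 with edgeR 4.0.16 (filterByExpr, TMM, robust quasi-likelihood F test) on the 3 groups of a MEF set, and differences between sets as interaction contrasts over all 22 libraries, with Benjamini-Hochberg adjustment over all genes tested and a threshold of 0.05. Standard errors were the log2 fold change divided by the square root of F, and 95% intervals were built from them. Levels are CPM with TMM factors over 22 libraries, and RPKM uses the exon lengths of GENCODE vM1. Correlations used log2 CPM with a prior count of 2. Libraries with Y-linked counts were those with a sum of Y-linked genes of at least 10 CPM. Each library was 1 replicate, and the labels do not say which libraries share a culture or mother, so p-values measure only the spread between libraries. No pair of the same group agreed within sampling noise (chi-square per degree of freedom 20.61 to 265.71 over 30 pairs). Only the edgeR comparisons within the *S6K1* set were tried on simulated counts, with changes larger than most called changes of the 10 genes. The *S6K1/S6K2* set, the interaction contrasts and the alternative fits were not tried in this way.

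The 10 genes were named in the 4 comparisons whether or not they passed, with *Rps6kb1* and *Rps6kb2* as a check, from each pathway list the 3 genes with the smallest p among those that passed, and for each member the 3 most similar genes, of which 1 is not reported here. The members and lists were chosen with earlier results of these data known. The alternatives were DESeq2 1.42.0, RLE scaling, library size only, no filter, other groups in the fit, a covariate for the mean log2 CPM of Y-linked genes and leaving out each library in turn.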

Additional observations from a re-analysis of the deposited data

Results flagged for a closer look

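In the early WT MEFs of the *S6K1* set, replicate 4 had *Nfkbie* at 3.43 CPM, below the nearest of the other 3 libraries at 5.89 CPM (a gap of 0.891 of the group's range). Of 40 sets of 4 libraries tested in this way, this was the 1 beyond Dixon's limit. Chance alone flags about 1 in 20, so 1 flagged set among 40 is no more than chance gives. Without this library the rise of *Nfkbie* with passage was 0.88 log2 units and did not pass the test (adjusted p = 0.0704).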

How the results depend on the processing

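No paired analysis was possible because the labels carry no replicate numbers shared between groups and do not name the mother of a library. No alternative reversed a called value. The rises of *Nfkbia* (1.15 to 1.34) and *Tnfaip3* (2.02 to 2.37) with passage in the *S6K1/S6K2* set passed in all 18 alternatives, that of *Nfkbie* in the *S6K1* set in 15 of 18 (0.82 to 1.18) and the fall of *Bcl3* in 14 of 18 (−1.25 to −0.87). The fall of *Tnfaip3* in DKO MEFs passed in 4 of 18 (DESeq2 gave the smallest adjusted p, 0.00459). It did not pass with RLE scaling (−1.24, adjusted p = 0.0532), library size only (−1.26, adjusted p = 0.0578), all 6 groups in the fit (−1.25, adjusted p = 0.0549) or the 2 groups alone (−1.26, adjusted p = 0.0762), each of which left 0 of the 10 genes, and leaving out a library left 0 to 1.

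Over all genes, 6 passed in *S6K1* KO MEFs, 250 with DESeq2, 43 without the filter, 16 with all 6 groups in the fit, 37 with the Y-linked covariate and 2 to 9 without a library. With passage in the *S6K1* set 1827 passed, 3288 with the Y-linked covariate (3 of the 10 genes in place of 1) and 1223 (without late WT replicate 3) to 1749 without a library (0 to 1 of the 10). In the *S6K1/S6K2* set 1892 passed, and 885 (without early WT replicate 1) to 2247 without a library (2 to 3 of the 10). In DKO MEFs 686 passed, 1172 with DESeq2 and 97 (without DKO replicate 2) to 783 without a library. The passage difference between sets passed for 106 genes, 218 with DESeq2 (1 of the 10) and 78 to 118 without a library (0 to 1 of the 10). The genotype difference passed for 1 gene, *Rps6kb2*, for 63 with DESeq2, 3 without the filter and 1 to 5 without a library. The cause was not tested. Without TMM the mean of *Rela* was 65.6 CPM in KO MEFs and 63.6 CPM in early WT MEFs of the *S6K1/S6K2* set, and that of *Relb* there was 17.2 CPM. Depth limits *Tnfaip3*, *Nfkbie*, *Bcl3* and *Rel* most, with as few as 19, 40, 45 and 59 counts in a library.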

Other observations

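Other cell-type markers were followed beside the NF-κB genes. Of 12 fibroblast markers 3 fell and 0 rose with passage in each MEF set, and in DKO MEFs 1 rose. Over all genes tested 5.97% and 4.89% were called lower with passage in the *S6K1* and *S6K1/S6K2* sets, and 0.821% higher in DKO MEFs. Of 8 mesothelial and epithelial markers 6 were tested in each set, and 3 fell with passage in both. Their summed level was 55.4 to 101 CPM in early and 18.7 to 39.1 CPM in late WT libraries of the *S6K1* set, and 89.5 to 118 CPM and 13.1 to 41.9 CPM in those of the *S6K1/S6K2* set. Endothelial markers summed to 14.5 CPM or less in every library, and skeletal muscle markers to 4.07 to 94.4 CPM. Of the 7 lymphoid markers 0 passed the filter.

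In DKO MEFs, where *Tnfaip3* fell, 1 of 18 immediate-early genes rose (*Ier2*, log2 fold change 0.63, adjusted p = 0.0428) and 1 fell (*Atf3*, −1.21, adjusted p = 0.00466, both by the edgeR test and named after their values were seen). Over all genes tested 0.821% were called higher and 3.95% lower in DKO MEFs. *Atf3*, the gene most similar to *Tnfaip3* over the 22 libraries, rose with passage in the *S6K1/S6K2* set (2.79).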
